A study of Mus musculus with 9 samples.

Results

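The genes described here are the glucocorticoid receptor, Nr3c1, and 9 genes that glucocorticoids are known to induce: Fkbp5, Tsc22d3, Zbtb16, Sgk1, Dusp1, Ddit4, Hif3a, Map3k6 and Cebpd. They were chosen by symbol, and every non-control probe whose accession maps to one of these symbols was taken. That gave 17 of the 41174 probes and 9 of the 27774 genes tested. No probe was mapped to Zbtb16, the gene of the zinc finger repressor PLZF, so its expression is not analysed here. RNA was measured in whole hearts of untreated male mice labelled C57BL/6, 3 to 4 months old and fed NIH31 diet. There were 5 wild-type (WT) mice and 4 homozygous for the staggerer mutation of Rora (RORasg/sg), which removes function of the nuclear receptor RORalpha in every cell of the animal. RNA of each heart was read on an Agilent array of its own, in 1 colour. Corticosterone, and the hour at which hearts were taken, were not analysed here.

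Glucocorticoids, corticosterone in mice, are adrenal steroids released in a daily rhythm and under stress. Their receptor waits in the cytoplasm in a complex with HSP90 and cochaperones, moves to the nucleus when hormone binds, and binds DNA as a pair at inverted repeats spaced by a short gap, the glucocorticoid response elements. In heart muscle the receptor is needed for normal contraction, and its targets include brakes on the receptor itself, on inflammatory signalling and on growth signalling.

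Promoter stretches of 3 of the genes are shown first, since they hold letters of known response elements. Whether these act in the heart was not tested. In RefSeq windows covering the 250 bases before each transcription start (GRCm38.p6), 14 windows belonged to 7 of the 10 genes, 6 of them to Sgk1 and 3 to Tsc22d3. Nr3c1, Zbtb16 and Cebpd had none in this table. The perfect palindromic element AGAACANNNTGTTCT was found in 1 of these 14 windows, 189 bases before a start of Sgk1, and in 3 of all 32851 windows (0.00913%). A relaxed form, GNACANNNTGTNC, which also matches the perfect element, was found in Sgk1 and 181 bases before the start of Map3k6, against 0.387% of all windows. The half-site AGAACA, searched on both strands and contained in the palindrome, was found in 4 windows, 3 of Sgk1 and 1 of Tsc22d3, against 16.1% of all windows. The letters AGGTCA, searched as a ROR half-site, were found on either strand in 2 of the Sgk1 windows, 63 and 101 bases before those starts. They were found in 14% of all windows, and the letters beside them were not part of the search. Dusp1 held the cyclic AMP response element TGACGTCA 143 bases before its start, as did 1.55% of all windows. These are matches of letters in a short window and say nothing about elements further away. The 3 stretches are given 5′ to 3′ on the strand of the gene, with the matched motif in capitals.
Sgk1, chr10:21993641-21993790, plus strand: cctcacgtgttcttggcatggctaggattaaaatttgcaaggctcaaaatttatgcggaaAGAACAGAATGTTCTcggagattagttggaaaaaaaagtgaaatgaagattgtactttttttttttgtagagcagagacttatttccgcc
Map3k6, chr4:133240577-133240724, plus strand: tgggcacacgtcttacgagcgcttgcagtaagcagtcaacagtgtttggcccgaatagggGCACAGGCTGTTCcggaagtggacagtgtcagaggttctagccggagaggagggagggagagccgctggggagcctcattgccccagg
Dusp1, chr17:26508533-26508675, minus strand: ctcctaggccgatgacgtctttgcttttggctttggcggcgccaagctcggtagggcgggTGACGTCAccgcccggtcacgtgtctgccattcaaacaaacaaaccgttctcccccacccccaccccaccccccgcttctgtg

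Values below are log2 of the processed signal relative to each array's 75th percentile, so 0 is that percentile's own level. A difference is the RORasg/sg mean minus the WT mean on that scale. The arrays were not equally bright. The 75th percentile of processed signal was 436 in WT 4 and 264 to 391 in RORasg/sg 2, 3 and 4 (the 4 dimmer arrays), and 547 to 773 in the other 5 (the brighter arrays), which hold WT 1, 2, 3 and 5 and RORasg/sg 1. Relative to the mean of the brighter WT hearts, the median gene lay 0.64, 0.71 and 0.81 higher in RORasg/sg 2, 3 and 4, 0.29 higher in WT 4, and 0.35 lower in RORasg/sg 1 (-0.35). The median difference of all genes was therefore 0.41, and single values are to be read against it. Rora itself was lower in all 4 RORasg/sg hearts (-2.65 to 0.11) than in any WT heart (1.55 to 3.32) on probe A_51_P477779, and likewise on A_52_P652442. On the dim probe A_52_P652950 the groups overlapped (-6.75 to -3.16 and -5.05 to -3.27). Which probes lie inside the deleted part is not known.

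None of the 9 measured genes differed between genotypes at an adjusted p under 0.05 in limma (0 of 9, where 0.0036% of all genes were called), and none did at an unadjusted p under 0.05, where 11.5% of all genes did. In each of the 9, the 2 groups of hearts overlapped, whereas 2.84% of all genes had groups that did not. Mean signal was higher in RORasg/sg hearts for 5 genes (Fkbp5, Dusp1, Ddit4, Hif3a and Cebpd), against 66.8% of all genes, and lower for 4 (Nr3c1, Tsc22d3, Sgk1 and Map3k6). The median difference was 0.32, against 0.41 over all genes tested. The hearts of the mutant group varied more: the SD was larger in RORasg/sg than in WT for 8 of the 9 genes, and for 86.2% of all genes. Nr3c1 was the exception. RORasg/sg 1 was at one end of all 9 hearts for 5 genes, highest for Ddit4 and Map3k6 and lowest for Fkbp5, Hif3a and Cebpd. RORasg/sg 2 was highest for Tsc22d3, Sgk1, Dusp1 and Cebpd.

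**Figure D1:**
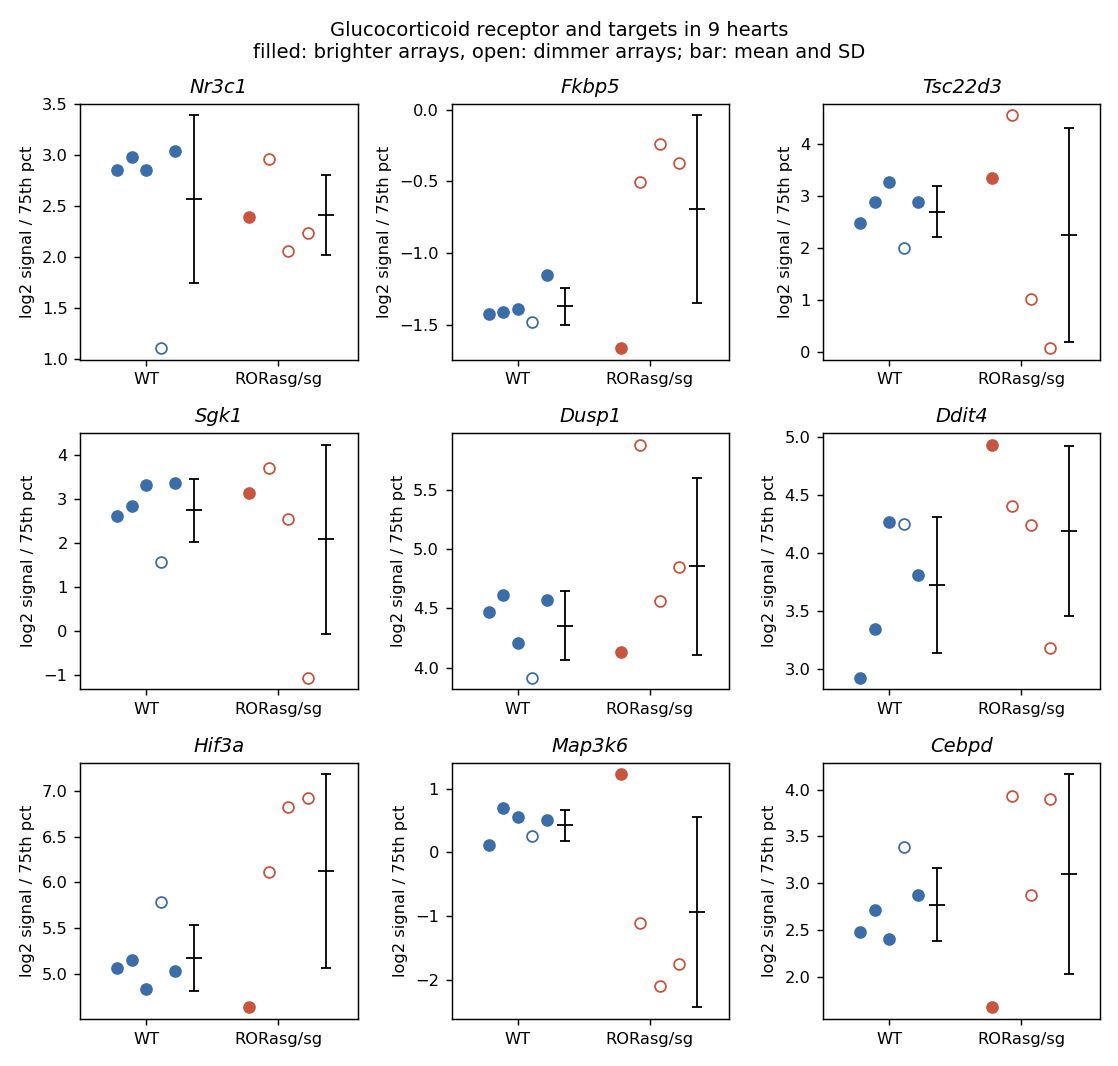
Log2 signal relative to each array's 75th percentile (vertical axes, a separate range for each gene) in 5 WT and 4 RORasg/sg hearts for the 9 measured genes, 1 point per heart, filled for the brighter and open for the dimmer arrays, with mean and SD beside each group. The groups overlap in every gene, and RORasg/sg 1, the filled point of that group, lies apart from RORasg/sg 2, 3 and 4 for Fkbp5, Hif3a, Map3k6 and Cebpd.

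The receptor gene was read by 4 probes that did not behave alike. The brightest, A_52_P138090, which represents Nr3c1 in the comparison of genes, read 2.86, 2.99, 2.86, 1.10 and 3.04 in WT 1 to 5 and 2.39, 2.96, 2.06 and 2.24 in RORasg/sg 1 to 4. All but one of the WT hearts sat close together, and WT 4 was the lowest of all 9 hearts. The means were 2.57 ± 0.824 (SD, n = 5) and 2.41 ± 0.393 (SD, n = 4), a difference of -0.16 (SE 0.481, limma adjusted p = 0.847). The difference was -0.52 without WT 4 and -0.54 in the 5 brighter arrays, where RORasg/sg 1 is the lone mutant heart, so that value has no replicate. It was -0.24 within slide 1 and 0.17 within slide 2, each of which held 2 hearts of either genotype.

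Probe A_52_P254174 was the one Nr3c1 probe whose groups did not overlap. It read -1.39, -0.99, -1.34, -0.30 and -1.12 in WT 1 to 5 and -1.93, -2.26, -2.09 and -4.54 in RORasg/sg 1 to 4. Every RORasg/sg heart was thus below every WT heart, as for 1.83% of all probes, and RORasg/sg 4 was far below the rest. The processed signal of this dim probe was only 58.4, 89.5 and 11.1 in RORasg/sg 2, 3 and 4, though flagged well above background on all 9 arrays. The difference was -1.68 (SE 0.574, limma adjusted p = 0.335 over all kept probes, of which 0.00275% were called, the exact two-sided permutation test p = 0.0159, the smallest that 126 splits allow).

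The remaining Nr3c1 probes gave opposite signs. Probe A_52_P63106 read 0.54, 0.42, 0.26, -3.62 and 0.32 in WT and -0.00094, -5.61, -2.63 and -4.63 in RORasg/sg hearts, a difference of -2.80 (SE 1.15). Its low values were those of the 4 dimmer arrays, WT 4 included, and it was not well above background in RORasg/sg 2. Probe A_51_P355693 read -0.52, -0.65, -0.56, -0.83 and -0.35 in WT and -0.70, -0.022, -0.046 and -0.064 in RORasg/sg hearts, a difference of 0.38 (SE 0.393). Here RORasg/sg 2, 3 and 4 were above every WT heart and RORasg/sg 1 was not. A ratio of 2 probes on the same array does not depend on scaling, and 13 such ratios were computed over the genes with more than 1 probe. The log2 ratio of A_52_P254174 to A_51_P355693 was -0.44 ± 0.584 (SD, n = 5 WT) against -2.50 ± 1.39 (SD, n = 4 RORasg/sg), and the groups did not overlap (exact two-sided permutation p = 0.0159, unadjusted, the smallest possible). The groups of the other 12 ratios overlapped. The ratio without overlap uses A_52_P254174, whose groups were already apart. The share of such ratios over all genes was not computed. With the mean of its 4 probes, Nr3c1 differed by -1.06 (limma adjusted p = 0.395).

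**Figure D2:**
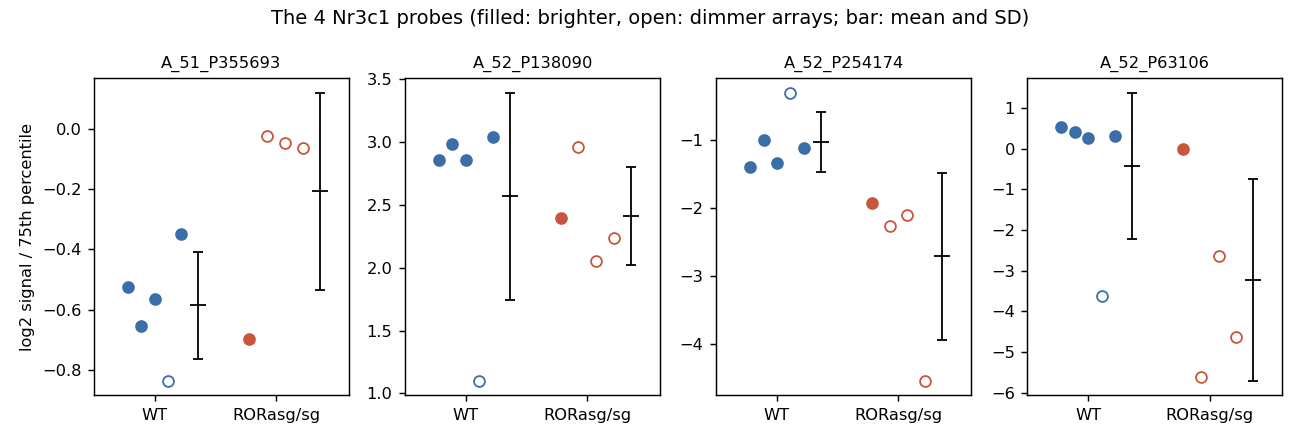
Log2 signal relative to each array's 75th percentile (vertical axes, a separate range for each probe) for the 4 Nr3c1 probes in 5 WT and 4 RORasg/sg hearts, filled for the brighter and open for the dimmer arrays, with mean and SD. The group differences are 0.38, -0.16, -1.68 and -2.80 from left to right, and WT 4 is lowest in the WT group on 3 probes and highest on A_52_P254174.

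The 3 genes whose profile over the 9 hearts was most like that of Nr3c1, by the root mean square difference of centred log2 values among 27685 genes, were Gm4788 (0.118), Chmp1b (0.156), a subunit of the ESCRT-III membrane remodelling machinery, and Ccpg1 (0.161), a receptor for autophagy of the endoplasmic reticulum. In each of them WT 4 was again the lowest heart. Gm4788 read -0.92 there and -0.088 to 1.17 in the others. The reading of Nr3c1 in WT 4 deviated from the brighter WT hearts by -1.83, more than in any other heart, so this likeness rests mainly on 1 array.

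Fkbp5 encodes FKBP51, the cochaperone that lowers the receptor's affinity for hormone and closes a negative feedback loop. On its brightest probe, A_51_P383689, it read -1.42, -1.41, -1.39, -1.48 and -1.15 in WT 1 to 5 and -1.66, -0.50, -0.24 and -0.37 in RORasg/sg 1 to 4. RORasg/sg 2, 3 and 4 were above every WT heart, and RORasg/sg 1 was below every WT heart. The means were -1.37 ± 0.128 (SD, n = 5) and -0.69 ± 0.653 (SD, n = 4), a difference of 0.68 (SE 0.428, limma adjusted p = 0.423, exact two-sided permutation p = 0.0952). With brightness as a covariate the difference was 0.28 (SE 0.373). It turned to -0.32 in the 5 brighter arrays, with 1 RORasg/sg heart, where the median of all genes was -0.35. None of the 9 genes was called in those arrays, where 4.54% of all genes were.

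Without RORasg/sg 1, Fkbp5 was called (0.998, limma adjusted p = 0.0246), in a setting where 37.6% of all genes were called. The median of all genes in that setting was 0.69. The processed signal of this probe was 250, 237, 236, 152 and 242 in WT and 241, 197, 324 and 200.2 in RORasg/sg hearts, as deposited. On unscaled values the difference was 0.099 (SE 0.339), where the median of all genes was -0.17. The other Fkbp5 probes differed by -0.080 (SE 0.444) and 0.41 (SE 0.640), with overlapping groups.

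Tsc22d3 encodes GILZ, a leucine zipper protein that carries part of the anti-inflammatory action of glucocorticoids by binding NF-kappaB and AP-1. Probe A_51_P235821 read 2.47, 2.88, 3.27, 1.99 and 2.88 in WT hearts and 3.34, 4.55, 1.02 and 0.070 in RORasg/sg 1 to 4. The mutant hearts fell on both sides of the WT group: the 2 of slide 1 were above all WT hearts and the 2 of slide 2 were below them. The difference was -0.45 (SE 0.790, limma adjusted p = 0.724), with 1.26 within slide 1 and -2.08 within slide 2. The second probe, A_52_P600518, read 0.023 to 0.86 in WT and 0.82, 0.45, -4.53 and -1.45 in RORasg/sg hearts. Again RORasg/sg 3 and 4 were below every WT heart, and the difference was -1.72 (SE 0.918).

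Dusp1 encodes MKP-1, a phosphatase that switches off p38 and JNK. It read 4.47, 4.61, 4.20, 3.91 and 4.57 in WT and 4.13, 5.88, 4.56 and 4.85 in RORasg/sg hearts. RORasg/sg 2 stood above all others. The means were 4.35 ± 0.291 (SD, n = 5) and 4.85 ± 0.744 (SD, n = 4), a difference of 0.50 (SE 0.384, limma adjusted p = 0.461), close to the 0.41 of the median gene. Without RORasg/sg 2 it was 0.16. It was -0.077 without scaling and -0.33 in the 5 brighter arrays, where the medians of all genes were -0.17 and -0.35.

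The kinase genes had lower mean signal in RORasg/sg hearts. Sgk1, whose promoter element is shown above, encodes a kinase that regulates ion channels and transporters and is induced through the glucocorticoid and the mineralocorticoid receptor. It read 2.62, 2.85, 3.31, 1.57 and 3.36 in WT and 3.14, 3.71, 2.55 and -1.06 in RORasg/sg hearts. A single heart, RORasg/sg 4, was below the WT range, and RORasg/sg 2 was above it. The difference of -0.66 (SE 0.841, limma adjusted p = 0.631) turned to 0.39 without RORasg/sg 4, and it was 0.69 within slide 1 and -1.69 within slide 2.

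Map3k6 encodes ASK2, a stress-activated kinase upstream of p38 and JNK, and had the largest difference of the 9 genes. It read 0.11, 0.70, 0.55, 0.25 and 0.51 in WT and 1.22, -1.10, -2.10 and -1.75 in RORasg/sg hearts. RORasg/sg 2, 3 and 4 were below every WT heart, WT 4 of the dimmer arrays included, and RORasg/sg 1 was above every WT heart. The means were 0.42 ± 0.240 (SD, n = 5) and -0.93 ± 1.49 (SD, n = 4), a difference of -1.36 (SE 0.630, limma adjusted p = 0.418, exact two-sided permutation p = 0.0952). Without RORasg/sg 1 it was -2.07 (limma adjusted p = 0.00665), with 8.81% of all genes called lower there, while in the 5 brighter arrays it was 0.75. Without scaling it was -1.93, where the median of all genes was -0.17. That change moved the differences of the 9 genes down alike, so a negative sign could not turn. Within slide 2 the Map3k6 difference was -2.33. Within slide 1 it was -0.35 (SE 0.924), with RORasg/sg 1 above and RORasg/sg 2 below every WT heart. The fit with brightness as a covariate gave -0.47 (SE 0.536).

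Hif3a encodes a hypoxia-inducible factor subunit that can restrain the other HIF proteins and is a sensitive glucocorticoid target. Its bright probe, A_52_P371541, read 5.06, 5.15, 4.83, 5.79 and 5.02 in WT and 4.63, 6.12, 6.83 and 6.93 in RORasg/sg hearts. RORasg/sg 2, 3 and 4 were above every WT heart, WT 4 was the highest WT heart, and RORasg/sg 1 was the lowest of all. The difference was 0.96 (SE 0.448, limma adjusted p = 0.418, exact two-sided permutation p = 0.143). It was called without RORasg/sg 1 (1.45, limma adjusted p = 0.0102), with 28.8% of all genes called higher there. The median of all genes in that fit was 0.69. The Hif3a difference turned to -0.39 in the 5 brighter arrays, where the median of all genes was -0.35. With brightness as a covariate it was 0.22 (SE 0.299). Its much dimmer probes, A_51_P101506 and A_52_P288284, differed by 0.52 (SE 0.450) and 0.60 (SE 0.498), near the 0.41 of the median gene. On A_51_P101506, RORasg/sg 2 read -1.87, within the WT range of -1.88 to -1.59. On A_52_P288284, RORasg/sg 2, 3 and 4 were above every WT heart. The 3 probes had the same sign, unlike those of Nr3c1 and Fkbp5, but mean signal was higher for 66.8% of all genes.

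Ddit4 encodes REDD1, which inhibits the growth kinase mTORC1 under hypoxia, energy stress and glucocorticoids. It read 2.93, 3.35, 4.27, 4.25 and 3.82 in WT and 4.93, 4.40, 4.24 and 3.18 in RORasg/sg hearts. WT hearts themselves spanned more than 1 log2 unit, with WT 1 and 2 of slide 1 the lowest of that group. The difference was 0.47 (SE 0.443, limma adjusted p = 0.528). It was 0.22 without RORasg/sg 1, 0.27 without WT 1 and 0.80 without RORasg/sg 4, with 1.53 within slide 1, -0.55 within slide 2 and -0.11 without scaling.

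Cebpd encodes a transcription factor of the acute phase response. It read 2.48, 2.71, 2.41, 3.39 and 2.87 in WT and 1.67, 3.93, 2.87 and 3.90 in RORasg/sg hearts. WT 4 was the highest WT heart, and RORasg/sg 1 was below every other heart. The difference was 0.32 (SE 0.506, limma adjusted p = 0.693). It was 0.046 without RORasg/sg 2, 0.055 without RORasg/sg 4 and 0.80 without RORasg/sg 1. The 5 brighter arrays gave -0.94, the fit with brightness as a covariate -0.53 and unscaled values -0.25. The medians of all genes in these settings were -0.35, 0.0075 and -0.17.

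**Figure D3:**
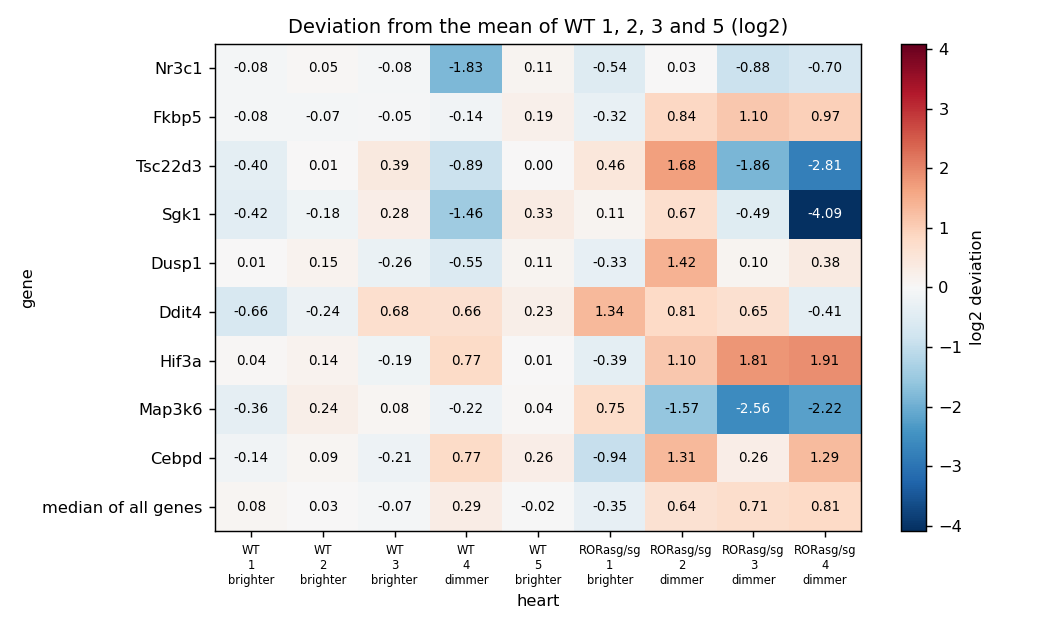
Deviation of each gene (rows) in each heart (columns) from the mean of the brighter WT hearts 1, 2, 3 and 5, in log2 units, with the median of all genes in the last row. RORasg/sg 2, 3 and 4 deviate by 0.84 to 1.10 for Fkbp5, 1.10 to 1.91 for Hif3a and -2.56 to -1.57 for Map3k6, RORasg/sg 1 deviates the opposite way for each, and the median gene deviates by 0.64 to 0.81 in the former and -0.35 in the latter.

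**Figure D4:**
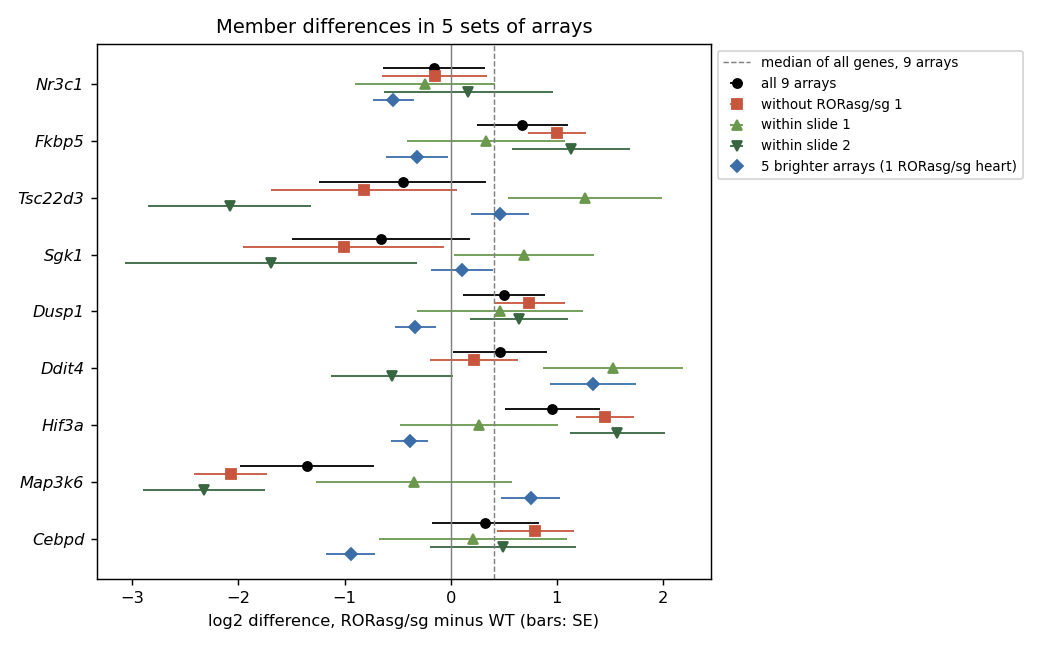
Log2 difference, RORasg/sg minus WT, with its SE, for the 9 genes in all arrays, without RORasg/sg 1, within slides 1 and 2 and in the 5 brighter arrays. RORasg/sg 1 is the lone mutant heart of the brighter arrays, where the median of all genes is -0.35. For Fkbp5, Tsc22d3, Sgk1, Dusp1, Hif3a, Map3k6 and Cebpd the difference lies further from 0 without RORasg/sg 1 and has the opposite sign in the brighter arrays. Both readings rest on that heart and are not independent. Nr3c1, Tsc22d3, Sgk1 and Ddit4 have opposite signs within the 2 slides.

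The 3 genes called without RORasg/sg 1 make up 3 of 9 measured genes, beside 37.6% of all genes in that setting, so their share is near the background. That fit compares RORasg/sg 2, 3 and 4, all dimmer arrays, with a WT group that has a single dimmer array. The median difference of all genes in it was 0.69. Restricted to the 4 dimmer arrays, with WT 4 as the lone WT heart, the differences were 1.11 for Fkbp5, 0.83 for Hif3a and -1.90 for Map3k6. The median of all genes there was 0.50. No gene of all those tested was called in these arrays, so they give values and no test of the 9 genes.

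Genes that supply, hold and assist the receptor were read from fixed lists. None of their genes passed over all genes in limma, and all values that follow are differences that did not pass. Of the 12 HSP90 chaperone and cochaperone genes, mean signal in the mutant was higher for 3 and lower for 9 (median -0.88, against 0.41 for all genes). Bag1, a cochaperone that binds HSP70, differed by -3.01 (SE 0.872), Stip1, the HSP70 to HSP90 adaptor, by -2.13 (SE 0.739), Hspa8, the constitutive HSP70, by -1.05 (SE 0.413) and Hsp90ab1 by -1.15 (SE 0.472). Bag1 lay between 3.75 and 4.35 in WT, while RORasg/sg 1 to 4 read 4.28, 1.67, -0.41 and -1.05. RORasg/sg 1 lay within the WT range and the others below it. The median deviation of this list from the brighter WT hearts was -0.12, -0.13, -1.40 and -1.72 in RORasg/sg 1 to 4, where the median of all genes was -0.35, 0.64, 0.71 and 0.81. Without RORasg/sg 4 the list median was -0.31, and it was -0.078 within slide 1 and -1.85 within slide 2.

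Of 10 measured genes of corticosteroid supply, which make, regenerate, carry or export the hormone, 5 had higher and 5 lower mean signal (median -0.029). Hsd11b2, the enzyme that inactivates corticosterone, differed by 0.78 (SE 0.416). Abcb1a, a steroid-exporting pump, differed by -1.86 (SE 0.861) but rose well above background in only 1 mutant heart, and its paralog Abcb1b differed by -1.74 (SE 0.908). Abcb1b read -5.49 in RORasg/sg 3 and -0.92, 0.0021 and -0.86 in RORasg/sg 1, 2 and 4, with 3 of the 4 well above background. The other probes of Abcb1b gave -0.34 and 0.089. Cyp11a1, which starts steroid synthesis, differed by 1.39 (SE 0.895).

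Among the steroid receptors, Nr3c2, the mineralocorticoid receptor that also binds corticosterone, differed by -2.54 (SE 0.759) on its brightest probe. Its WT hearts read -0.34 to 0.62 and the RORasg/sg hearts 0.26, -4.28, -3.07 and -1.87, so RORasg/sg 1 was at the WT level. The other Nr3c2 probes had the opposite sign, 0.48 (SE 0.524) and 0.78 (SE 0.457), a disagreement between probes of the kind seen in Nr3c1. The estrogen receptor genes Esr1 and Esr2 differed by 1.04 (SE 0.510) and 0.83 (SE 0.608). Of the 6 receptors listed, 5 were measured, 2 with higher and 3 with lower mean signal.

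Of 14 coregulators, 5 had higher and 9 lower mean signal (median -0.36). Ncor1, a corepressor, read -2.45 to 2.54 in the mutant and 2.82 to 3.30 in the WT hearts, without overlap (1.71% of all genes had every mutant heart below every WT heart), with a difference of -2.41 (SE 0.870), and its other probes gave -1.24, -1.23 and -0.55. Hdac6, the deacetylase of HSP90, differed by -2.52 (SE 0.702), Ncoa3, a coactivator, by -1.46 (SE 0.557) and Ncoa1 by 1.07 (SE 0.530). Hdac6 stood well above background in 3 of the 4 mutant hearts, and the other Ncoa3 probes gave 0.36 and 0.90.

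Among 38 measured further genes that glucocorticoids induce, 18 had higher and 20 lower mean signal (median -0.099). Txnip, an inhibitor of thioredoxin and of glucose uptake, differed by -2.89 (SE 0.899), Nfkbia, the NF-kappaB inhibitor, by -1.99 (SE 0.674), Rhob by -1.07 (SE 0.448) and Fbxo32, the muscle ubiquitin ligase atrogin-1, by -1.47 (SE 0.649). The second Fbxo32 probe gave 0.050 (SE 0.397). For Nfkbia, WT 4 read 4.39 and the other WT hearts 1.59 to 2.01, while RORasg/sg 1 read 1.63 and RORasg/sg 2, 3 and 4 read -0.56 to 0.67. The last 3 hearts were below the WT range. Of 16 genes that glucocorticoids repress, 11 had higher and 5 lower mean signal (median 0.32), led by Nos2 (1.30, SE 0.588), Mmp9 (0.90, SE 0.463), Ptgs2 (0.92, SE 0.569) and Cxcl1 (0.86, SE 0.538). Nos2 was well above background in 3 of 5 WT hearts. Both medians were below the 0.41 of all genes.

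**Figure D5:**
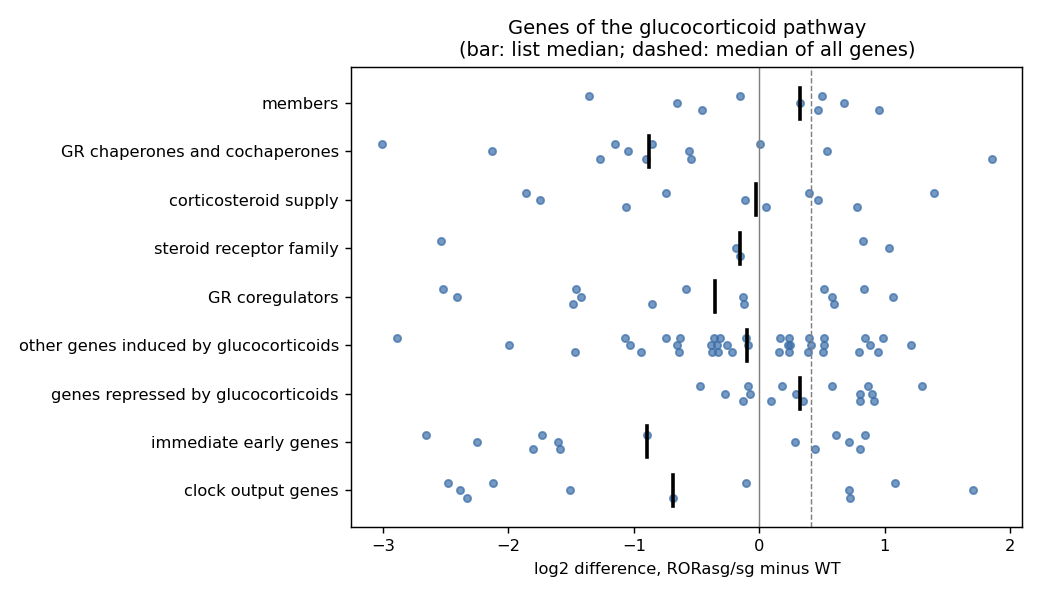
Log2 difference, RORasg/sg minus WT, of each measured gene (points) in the fixed lists, with the median of each list as a bar and the median of all genes, 0.41, as a dashed line. The medians of the chaperone, immediate early and clock output lists lie at -0.88, -0.89 and -0.68, those of the 9 described genes and of the repressed genes at 0.32.

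Some of these genes also answer to other inputs, and those inputs are given beside them. Dusp1, Cebpd and Sgk1 respond to handling and stress as immediate early genes do. Of 13 immediate early genes, 6 had higher and 7 lower mean signal (median -0.89). Klf4 differed by -1.73 (SE 0.467), Fos by -1.81 (SE 0.50, above background in 2 of the 4 mutant hearts), Ier2 by -2.66 (SE 0.846) and Egr1 by -1.59 (SE 0.652). The groups did not overlap for 3 of the 13, Klf4 and Fos among them, against 2.84% of all genes. The differences of Dusp1, Cebpd and Sgk1 were 0.50, 0.32 and -0.66. The list median was -0.31 with normexp, -0.16 within slide 1 and -0.30 with probes detected on all 9 arrays. Of 11 clock output genes, which like corticosterone follow the time of day, 4 had higher and 7 lower mean signal (median -0.68), with Nr1d1 at -2.33 (SE 0.599), Dbp at -1.51 (SE 0.487), Hlf at -2.48 (SE 0.916) and Per2 at 1.70 (SE 0.655, and -1.98 on its other probe). The median deviation of the clock output list was -0.30, 0.048, -0.52 and -1.74 in RORasg/sg 1 to 4, and the list median was -0.26 without RORasg/sg 4, -0.12 within slide 1 and -0.34 with normexp. The hour was not analysed, so in the clock output list time of day and the Rora genotype itself cannot be told apart. The part of either input in the values of the receptor's targets was not tested.

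Markers of cell types were set beside these values. In whole hearts fewer cells of a type and less RNA per cell cannot be told apart. The summed level of 8 cardiomyocyte markers, relative to the 75th percentile, ran from 692 to 826 in WT, and RORasg/sg 1 to 4 had 799, 713, 263 and 257. Mean signal of all 8 was lower in the mutant. RORasg/sg 3 and 4, the low hearts, were also the 2 lowest of the 9 for Tsc22d3 and Map3k6. On the probes that represent the genes, they were the 2 highest for Fkbp5 and Hif3a. The dimmer Fkbp5 probes differed from this. On A_52_P337899, RORasg/sg 3 read -3.84, the lowest of all hearts, and on A_52_P481493, RORasg/sg 4 read -3.39, within the WT range. As a pair, RORasg/sg 3 and 4 were at neither end for the other measured genes. The summed level of 4 B cell markers ran from 1.68 to 2.87 in WT, and RORasg/sg 1 to 4 had 1.13, 9.74, 12.7 and 8.35, and that of 5 measured T cell markers was 0.751 to 1.39 and 0.699, 2.29, 2.70 and 2.73. RORasg/sg 1 was below the WT range for both, as it was for Fkbp5, Hif3a and Cebpd, and the median gene there was lower too (-0.35). The 6 macrophage markers summed to 12.1 to 34.0 in WT and 13.1 to 41.1 in RORasg/sg hearts, the 6 endothelial markers to 19.9 to 37.4 and 25.4 to 66.6 (with 4 of the 6 lower in mean log2 signal, median difference -1.39), the 6 fibroblast markers to 50.5 to 89.4 and 64.5 to 148, and the 6 smooth muscle and pericyte markers to 61.3 to 135 and 59.2 to 126. The 6 adipocyte markers (0.690 to 3.35 and 1.08 to 1.94), the 5 red cell markers (25.1 to 59.6 and 28.1 to 68.5) and the 5 measured skeletal muscle markers (13.8 to 18.2 and 11.6 to 18.5) had overlapping ranges. Their part in the values of the 9 genes was not tested.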

How the data were processed

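Per the labels' protocols, 70 ng of total RNA per heart was amplified (NuGEN Ovation Pico WTA) and 5 ug of product labelled with Cy3. Per the file headers, the authors read the arrays (design 014868, grid build mm9) with Feature Extraction 12.0.0.7, a tool (version 12) also listed in the submitters' processing notes. The deposited intensity is linear, with background subtracted and no scaling across arrays. The series' value table held the same intensity (largest relative difference 0), with column medians of 139, 118, 110, 80.2 and 90.7 (WT 1 to 5) and 126, 55.4, 81.1 and 55.2 (RORasg/sg 1 to 4).

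Of 43379 non-control spots per array, outlier-flagged ones were left out (758 over 9 arrays). Spots of a probe were averaged as log2, and each array's 75th percentile was subtracted. Probes well above background on at least 4 arrays were kept (36404 of 41174), and the kept probe with the highest mean stood for its gene. Accessions matched RefSeq names (GRCm38.p6) for 28223 of the probes. That build is not the grid build, so it gave names and promoter windows only. The genotypes were tested in limma 3.58.1 (lmFit and trended eBayes, Benjamini-Hochberg, threshold 0.05) in R 4.3.3 with the R package data.table (version 1.17.8), and figures were drawn with matplotlib 3.10.9. The fit was also run on simulated data with equal spread in both groups and no differences in brightness, unlike these arrays. Exact permutation tests used all 126 splits. Named were every probe of the 10 genes, up to 4 genes of each list with the smallest p, and 3 genes most like Nr3c1. Not every gene that this rule names is reported here. Marker sums add linear signals.

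The genes, lists and tests were chosen with earlier results of these data known. Alternatives changed scaling, background correction (normexp, offset 50, on the median spot signal), filter, probe rule, eBayes setting, slide, replicate number, brightness and single arrays. Unscaled values were an alternative chosen after seeing the data. Hearts numbered 1 and 2 of both genotypes shared slide 1, those numbered 3 and 4 shared slide 2, and WT 5 was on slide 3. Each heart is 1 mouse, and precision is limited by the number of arrays.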

Additional observations from a re-analysis of the deposited data

Results flagged for a closer look

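In 5 of 34 groups of member probe values, 1 heart stood apart from the rest of its group by Dixon's criterion, which flags about 1 in 20 groups by chance. On Nr3c1 probe A_51_P355693, RORasg/sg 1 read -0.70, below the other 3 RORasg/sg hearts, of which the nearest read -0.064. WT 4 read 1.10 on Nr3c1 probe A_52_P138090, where the nearest WT heart read 2.86, and -3.62 on probe A_52_P63106, where the nearest read 0.26. On Nr3c1 probe A_52_P254174, RORasg/sg 4 read -4.54 and the nearest of its group -2.26. On Fkbp5 probe A_51_P383689, WT 5 read -1.15 and the nearest WT heart -1.39.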

How the results depend on the processing

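For the 9 genes, limma called 0 under every alternative except leaving out RORasg/sg 1, which gave 3 (a range of 0 to 3 over the arrays left out in turn). Over all genes the count was 1, and 0 with normexp, with a filter that needs detection on all 9 arrays, with the mean of probes, with slide as a block, within slide 1, within slide 2 and in the 4 dimmer arrays, 2 with quantile normalization, 3 without scaling, 1260 in the 5 brighter arrays (890 lower, with 1 RORasg/sg heart) and 0 to 10452 when single arrays were left out. It was 0 without any single WT heart, RORasg/sg 2 or RORasg/sg 3, and 10452 without RORasg/sg 1. In the 5 brighter arrays the mutant group is 1 heart, so calls there use the spread of WT hearts alone. They are not counted for the lists. Without RORasg/sg 1, where 37.6% of all genes were called, so were 6 of 12 chaperone (2 higher), 2 of 10 supply (1 higher) and 3 of 5 receptor genes (2 higher). So were 6 of 14 coregulator (2 higher), 10 of 38 induced (6 higher), 2 of 16 repressed (both higher), 7 of 13 immediate early (3 higher) and 9 of 11 clock output genes (4 higher). Each list had 0 when any other array was left out.

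Signs turned as follows. Within slide 1, Tsc22d3 was 1.26 and Sgk1 0.69. Within slide 2, Nr3c1 was 0.17 and Ddit4 -0.55. With brightness as a covariate, Nr3c1 was 0.034, Tsc22d3 0.091, Sgk1 0.21 and Cebpd -0.53. In the 5 brighter arrays, Fkbp5 was -0.32, Tsc22d3 0.46, Sgk1 0.11, Dusp1 -0.33, Hif3a -0.39, Map3k6 0.75 and Cebpd -0.94. The median of all genes there was -0.35, so Fkbp5, Dusp1 and Hif3a lay near it. In the 4 dimmer arrays, where that median was 0.50, Nr3c1 was 1.32, Sgk1 0.16 and Ddit4 -0.31. Without scaling, where it was -0.17, Dusp1 was -0.077, Ddit4 -0.11 and Cebpd -0.25. Leaving out single arrays gave -1.22 (without RORasg/sg 2) to 0.27 (without RORasg/sg 4) for Tsc22d3 and -1.20 to 0.39 for Sgk1, likewise. No sign turned with the array median, quantile normalization, normexp, either filter, the mean of probes, eBayes without trend, or slide or replicate number as a block. The cause of these turns was not tested.

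Correlations of deviations between hearts of the same replicate number were 0.046, -0.0064, -0.33 and 0.39 for numbers 1 to 4. Those between unlike numbers ran from -0.58 to 0.54, so the shared numbers showed no pairing in these values. Whether they mark pairs of mice cannot be told from this. With the replicate number as a block, 9 genes were called over all and 0 of the 9 described.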
